A study of Homo sapiens with 6 samples.

Results

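The 47 genes described here encode the factors that start translation of cytoplasmic mRNAs, from EIF1 to EIF6, with the kinases that phosphorylate eIF2 alpha and the proteins that bind eIF4E. They were chosen by gene symbol, each symbol matched to 1 of the 57905 rows of the count table, and all 47 passed the low-count filter that 16565 genes passed. RNA came from HCT116, a colorectal carcinoma line of human origin with a wild-type p53 response, after 1 h (Nut1h) or 10 h (Nut10h) in 10 µM Nutlin-3a, a small molecule that keeps HDM2 (MDM2) from binding p53. Cells given only the vehicle DMSO were the control (Nut0h), and the 3 conditions were sequenced in 2 biological replicates each, giving 6 libraries. The labels do not say whether replicates came from separate cultures, and p-values therefore measure the spread between these libraries.

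Initiation begins when eIF2, loaded with GTP and the initiator tRNA, joins the small ribosomal subunit together with eIF1, eIF1A, eIF3 and eIF5, and this complex is brought to the capped 5′ end of an mRNA by eIF4F, made of the cap-binding protein eIF4E, the scaffold eIF4G and the helicase eIF4A. After scanning to a start codon, eIF5 promotes GTP hydrolysis on eIF2 and eIF5B promotes joining of the large subunit. The pathway is held back in several ways. Stress-activated kinases phosphorylate eIF2 alpha, which blocks recycling of eIF2 by its exchange factor eIF2B. Unphosphorylated 4E-BPs occupy eIF4E when mTORC1 activity is low.

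The libraries held between 26068076 and 35473485 counts, of which the 47 genes took 1.13% to 1.44%, and no member had fewer than 267 counts in any library. Gene positions are those of GRCh37, and values below are counts normalized by the TMM method to the mean library size. Changes are log2 fold changes (± SE) from edgeR's quasi-likelihood test, with p-values adjusted by the Benjamini-Hochberg method over all 16565 genes and a call at an adjusted p of at most 0.05. The p53 target CDKN1A, an inhibitor of the cell cycle, had 10629 and 9286 at Nut0h, 9837 and 10726 at Nut1h and 145531 and 139682 at Nut10h, and MDM2 had 1688 and 2083 at Nut0h, 8694 and 8500.1 at Nut1h and 22633 and 27946 at Nut10h. Both were higher in each Nut10h library than in each Nut0h library, and at Nut1h the log2 fold changes were 2.19 for MDM2, called higher, and 0.046 for CDKN1A, not called. With the GC-content offsets described below, CDKN1A was called higher at Nut1h (0.60 with that on transcripts, adjusted p = 1.18e-05, and 0.97 with that on coding sequences, adjusted p = 4.74e-08). Of 6 markers of colorectal epithelium, EPCAM, KRT8, KRT18 and CDH1 had at least 2354 counts in every library, whereas CDX1 and VIL1 had at most 10. Among the 5 matched markers of other cell types, PTPRC, CD3E, COL1A2 and ALB had at most 25 counts in a library, but COL1A1, a fibroblast collagen, had 621 to 1484. Mitochondrial genes took 4.99% and 6.18% of counts at Nut0h, 8.44% and 8.15% at Nut1h and 6.45% and 7.06% at Nut10h, and with these genes left out 48 of the 49 values given in full below kept their side of the threshold. Values are relative to the library total, so that less RNA per cell and fewer cells that express a gene cannot be told apart.

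A set of start sites is shown first, because the members that hold it had a higher median change at Nut10h than the other members. mRNAs of many ribosomal proteins and translation factors begin with a C followed by a run of pyrimidines, the 5′ terminal oligopyrimidine motif known to tie their translation to mTORC1. Of the 47 members, 39 had a start window in RefSeq promoter sequences (GRCh38.p14), and in 8 of these (20.5%) a start base C was followed by at least 4 bases that were each C or T. The same rule was applied only to the strand that reads like the mRNA, and was set after the fold changes were known. It was met by 5.14% of the 27305 gene symbols with a window and by 7.24% of the tested genes with one. The windows run from 10 bases before to 20 bases from the start site onward, written 5′ to 3′, and capitals mark the run of pyrimidines that opens the transcript.

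EIF4A2, chr3:186783567-186783596, + strand: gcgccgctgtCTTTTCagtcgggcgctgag
EIF4B, chr12:53006446-53006475, + strand: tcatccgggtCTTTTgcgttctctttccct
EIF2A, chr3:150546777-150546806, + strand: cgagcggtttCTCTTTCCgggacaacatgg
EIF3M, chr11:32583821-32583850, + strand: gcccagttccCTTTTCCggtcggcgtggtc
EIF2S3, chrX:24054946-24054975, + strand: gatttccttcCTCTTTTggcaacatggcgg
EIF3D, chr22:36529147-36529176, - strand: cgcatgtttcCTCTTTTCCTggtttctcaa
EIF3F, chr11:7987327-7987356, + strand: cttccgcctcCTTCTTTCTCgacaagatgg
EIF3K, chr19:38619178-38619207, + strand: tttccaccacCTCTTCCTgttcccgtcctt

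In all, 31 members with a window had another start, among them EIF2AK4, which was called higher at Nut10h. For comparison, the windows of 3 members that fell at Nut10h and of EIF4E hold no such run at the start base and carry no capitals.

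EIF4A3, chr17:80147109-80147138, - strand: cggcagcggcacagcgaggtcggcagcggc
EIF1AX, chrX:20141819-20141848, - strand: gagtcgcggcgccatttgctgccgccgagc
EIF3B, chr7:2354817-2354846, + strand: tcgcacgcacatggctgggctgtagccgtc
EIF4E, chr4:98929114-98929143, - strand: tggagcggttgtgcgatcagatcgatctaa

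After 1 h of Nutlin-3a the initiation factor mRNAs changed broadly and in both directions. Of the 47 members, 25 were called higher (53.2%) and 12 lower (25.5%), and 10 were not called. Among all tested genes 34.5% were called higher and 32.3% lower, and the list was not tested. The median log2 fold change was 0.22 over the members and 0.045 over all genes. These counts moved with the GC-content offsets described below, under which falls outnumbered rises among the members. EIF2AK2, EIF4E, EIF4A2, EIF2S3 and EIF3C rose most, and EIF4EBP1, EIF6, EIF3F, EIF5A and EIF3G fell most.

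After 10 h fewer members passed the test and the changes were smaller. Of the 47, 3 members were called higher (6.38%; EIF4A2, EIF2AK4 and EIF4B) and 8 lower (17.0%; EIF4A3, EIF3B, EIF1AX, EIF4G1, EIF4EBP1, EIF5A, EIF5B and EIF2AK1), and 36 were not called. The background was 14.1% higher and 14.9% lower, close to the members' share of falls and above their share of rises. No fold change at Nut10h lay outside the range from -0.57 to 0.41, and the median was -0.082 against 0.00017 over all genes. EIF4A2 and EIF4B were called higher at both times, EIF3B, EIF4EBP1 and EIF5A lower at both times, and EIF1AX and EIF5B higher at Nut1h and lower at Nut10h. The calls at Nut10h rested on few libraries. EIF4A3 and EIF1AX were called when any 1 of the 6 libraries was left out, EIF2AK4 and EIF3B except without replicate 1 of Nut0h, and EIF4G1 except without replicate 2 of Nut10h, whereas EIF4A2 was called in 4 of these 6 fits, EIF4EBP1 in 2, EIF5A and EIF5B in 1 each, and EIF2AK1 and EIF4B in none. Each of these fits keeps 1 library in a group. The share of all genes called in them is not given here, so calls lost there are not read as particular to the members.

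Between Nut10h and Nut1h, 12 members were called higher (25.5%) and 27 lower (57.4%), against 34.2% and 33.7% of all genes. This comparison is the test of whether the changes at 1 h and at 10 h differ, since both were measured against the same Nut0h libraries, and 39 members passed it. With no offset, EIF1AX, EIF2AK2, EIF4E, EIF3J and EIF2S2 fell most from 1 h to 10 h, and EIF4EBP1, EIF6, EIF3F, EIF2B2 and EIF3G rose most. With the transcript GC-content offset described below 10 members were higher and 20 lower, beside 29.0% and 28.6% of all genes. With the coding offset 17 were higher and 16 lower, beside 29.1% and 30.5%. EIF3G was called lower with the transcript offset (-0.22).

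**Figure D1:**
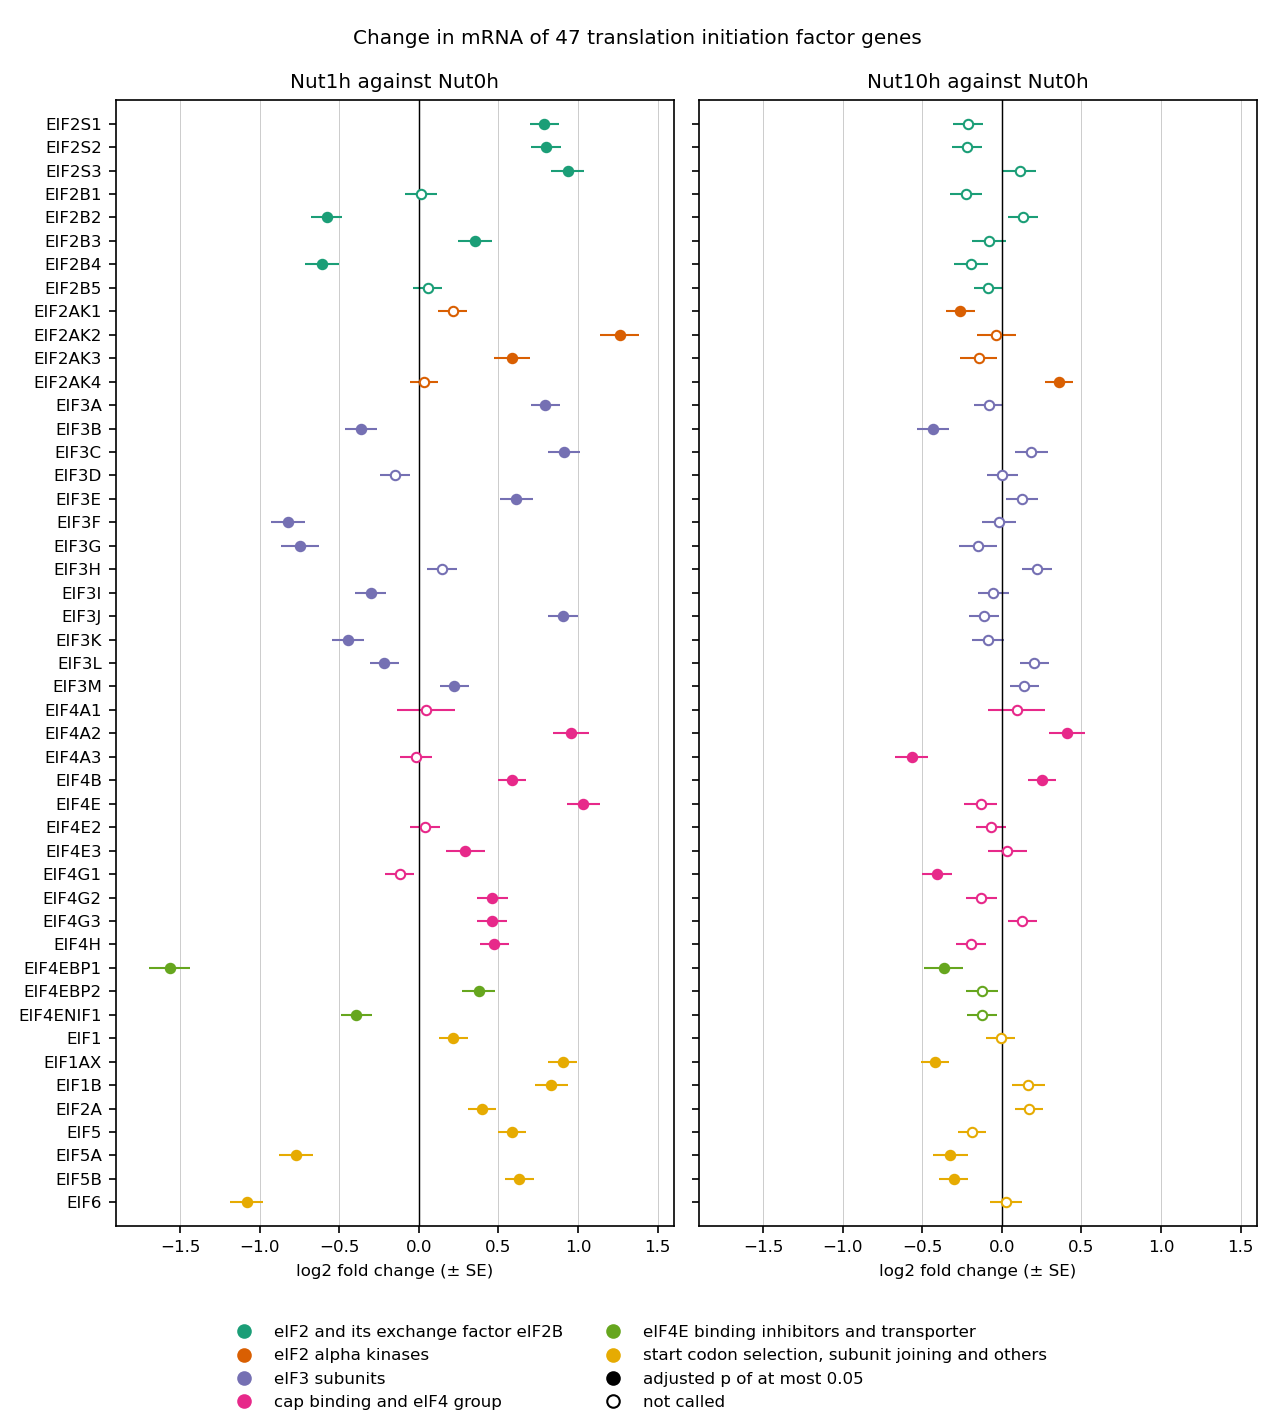
Log2 fold change (± SE, from edgeR) of each of the 47 members against Nut0h at Nut1h (left) and Nut10h (right), coloured by role, with filled points for an adjusted p of at most 0.05. At Nut1h the points spread from -1.57 to 1.26 with 37 members called, and at Nut10h they lie between -0.57 and 0.41 with 11 called.

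The changes at Nut1h followed the GC content of the genes. Across the 47 members, the log2 fold change at Nut1h had a Pearson r of -0.78 with the GC content of the coding sequence, and across the 12991 tested genes with a coding sequence r was -0.75. At Nut10h r was -0.19 over the members and -0.0039 over all genes. These are correlations across genes that share the same 6 libraries, genes do not replicate a condition, and the relation was not tested. All 15 members with a coding GC content under 45% were called higher at Nut1h, as were 84.7% of all genes in that class. Of the 8 members at 55% or more, 5 were called lower and 2 higher, and 71.9% of all genes in that class were lower and 4.89% higher. The 24 members in between held 8 rises and 7 falls, where 42.4% of all genes rose and 15.1% fell.

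**Figure D2:**
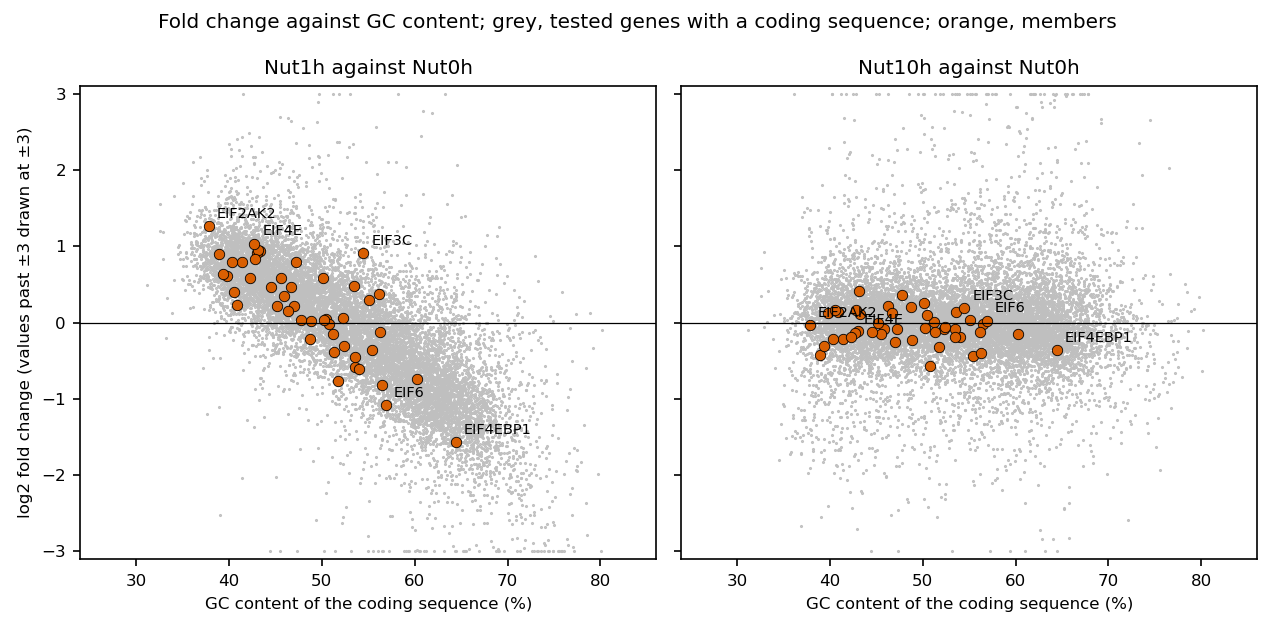
Log2 fold change against Nut0h (y axis, edgeR) against the GC content of the coding sequence in percent (x axis) at Nut1h (left) and Nut10h (right), with tested genes in grey and the 47 members in orange. At Nut1h values fall as GC content rises, over the members (r = -0.78) and over all genes (r = -0.75). EIF3C lies above the other members near its GC content. At Nut10h no such trend is seen over all genes (r = -0.0039).

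Each comparison was therefore repeated with a GC-content offset, a smooth trend of each library on GC content that is removed before the test. With the GC content of the canonical transcript, 10 members were higher (21.3%) and 17 lower (36.2%) at Nut1h, beside 19.2% and 25.0% of all genes. With that of the coding sequence, 11 were higher (23.4%) and 20 lower (42.6%), beside 25.2% and 24.9%. The median of the members at Nut1h was -0.051 with the transcript offset and -0.13 with the coding offset. Tested genes with no known GC content had no offset but are counted in all shares of all genes. Every member had a known value. Coding GC content was known for 78.4% of tested genes, so shares with the coding offset are not a like background. Calls in the same direction with no offset and with both offsets were made for 6 rises (EIF2S3, EIF2AK2, EIF3A, EIF3C, EIF4A2 and EIF4H) and 10 falls (EIF2B2, EIF2B4, EIF3F, EIF3I, EIF3K, EIF3L, EIF4EBP1, EIF4ENIF1, EIF5A and EIF6). Another 6 rises were called as falls with at least 1 offset (EIF3E, EIF3M, EIF4E3, EIF1, EIF2A and EIF5B), and 13 rises and 2 falls were not called with at least 1. All 11 calls at Nut10h were made with both offsets too. The share of all genes that kept, lost or reversed calls between the fits is not given here. Counts of such members are therefore not read as particular to them. At Nut10h the transcript offset gave 3 rises and 15 falls (background 17.3% and 22.9%), and the coding offset gave 4 rises and 12 falls (18.6% and 20.5%). Whether the relation with GC content at Nut1h arose in the cells or in the libraries cannot be told apart with these 6 libraries.

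**Figure D3:**
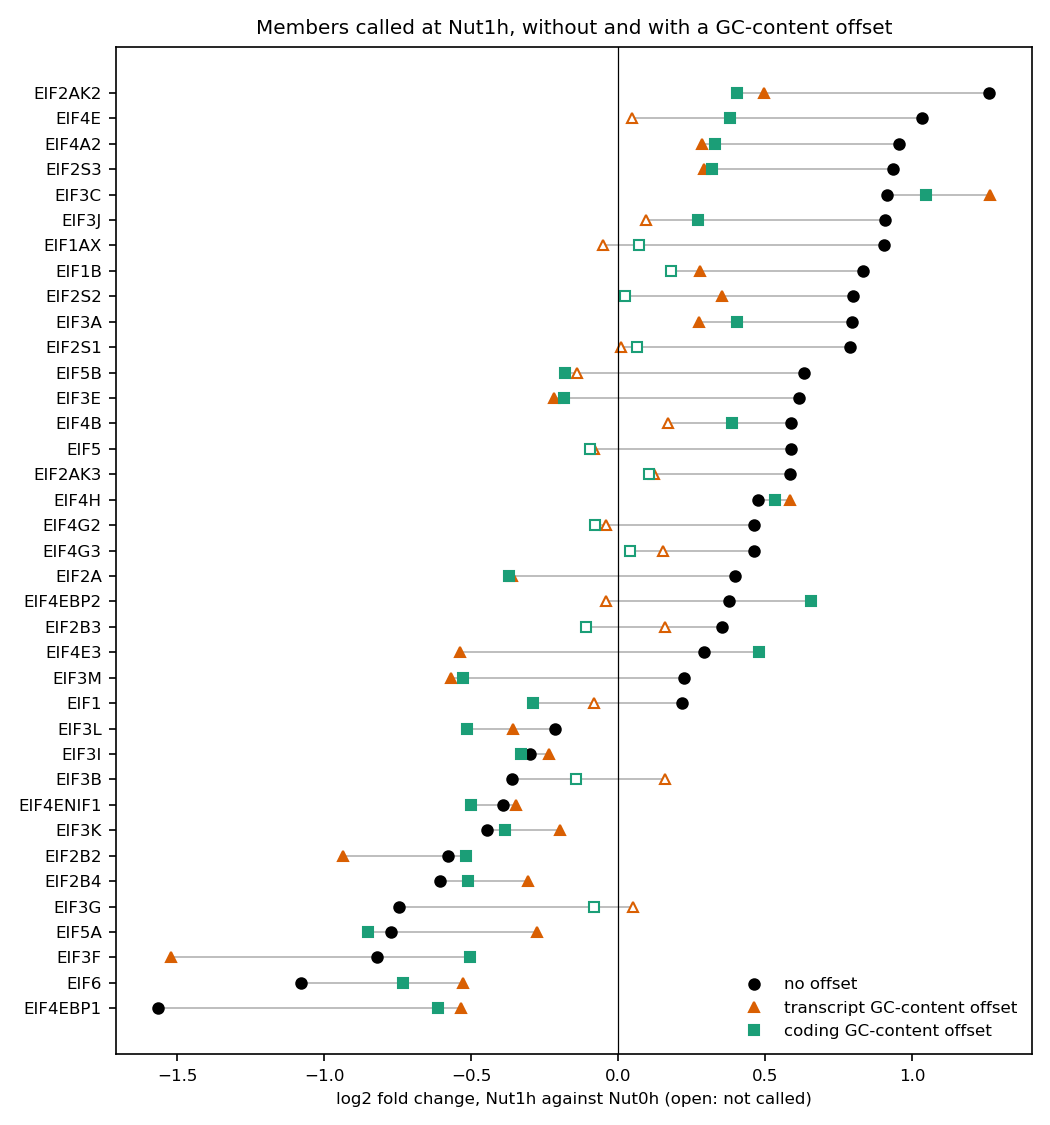
Log2 fold change between Nut1h and Nut0h (x axis) of the 37 members called there, with no offset (circles), with the offset on transcript GC content (triangles) and with the offset on coding GC content (squares). Filled marks have an adjusted p of at most 0.05, and most rises move towards or past 0 under the offsets except in EIF3C and EIF4H with both offsets and in EIF4EBP2 and EIF4E3 with the coding offset.

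eIF2 carries the initiator tRNA and is made of an alpha (EIF2S1), a beta (EIF2S2) and a gamma subunit (EIF2S3). All 3 mRNAs rose at Nut1h and none was called at Nut10h with no offset. All 3 have a coding GC content under 45%, a class in which 84.7% of all genes rose at Nut1h. Normalized counts of EIF2S3 (chrX:24073063-24096927, + strand), the subunit that binds GTP, were 6167 and 6731 at Nut0h, 12238 and 12414 at Nut1h and 6343 and 7596 at Nut10h. The Nut1h libraries were well above all others and the rest lay close together. The log2 fold change at Nut1h was 0.93 ± 0.10 (SE, adjusted p = 3.20e-06), and it was 0.29 with the transcript offset and 0.32 with the coding offset, called in both. EIF2S2 had 5555 and 5106 at Nut0h, 8903 and 9620.2 at Nut1h and 4500.4 and 4655 at Nut10h. Its fall from Nut1h to Nut10h was -1.02 ± 0.093 (SE, adjusted p = 4.10e-07), and -0.61 with the transcript offset and -0.22 with the coding offset, called in both. Its rise at Nut1h (0.80) was 0.35 with the transcript offset and 0.021 with the coding offset, called only in the former. EIF2S1, whose product is the target of the eIF2 alpha kinases, changed by 0.79 at Nut1h, but by 0.0074 with the transcript offset and 0.063 with the coding offset, called in neither.

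The 5 subunits of eIF2B, which reloads eIF2 with GTP, did not move together. At Nut1h EIF2B2 and EIF2B4 fell (-0.58 and -0.61, called with both offsets), EIF2B3 rose (0.35, not called with either offset), and EIF2B1 (0.014) and EIF2B5 (0.055) were not called. EIF2B1 was -0.40 with the transcript offset and -0.28 with the coding offset, called lower in both, and EIF2B5 was 0.22 with the transcript offset and 0.014 with the coding offset, called higher in the former. EIF2B2 (chr14:75469624-75479069), the beta subunit, had 1818 and 1707 at Nut0h, 1104 and 1259 at Nut1h and 1943 and 1923 at Nut10h. It was lowest in both Nut1h libraries, and its rise from Nut1h to Nut10h was 0.71 ± 0.10 (SE, adjusted p = 2.08e-05), and 1.03 with the transcript offset and 0.63 with the coding offset. With no offset, no eIF2 or eIF2B subunit was called at Nut10h, where the 8 fold changes ran from -0.23 (EIF2B1) to 0.13 (EIF2B2). With the transcript offset EIF2S1, EIF2S2, EIF2B1 and EIF2B4 were called lower there (-0.24, -0.25, -0.26 and -0.22), and with the coding offset EIF2S1 and EIF2B1 were (-0.21 and -0.24). Of all genes 14.1% rose and 14.9% fell at Nut10h with no offset. With the transcript offset 22.9% fell there, and with the coding offset 20.5%. At Nut1h 34.5% of all genes rose and 32.3% fell with no offset. The offsets gave 19.2% and 25.0% (transcript) and 25.2% and 24.9% (coding).

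The 4 eIF2 alpha kinases, each switched on by a different stress, differed in their pattern. EIF2AK2 (chr2:37326353-37384665, - strand) encodes PKR, which is activated by double-stranded RNA and induced by interferon. Its normalized counts were 1994 and 2503 at Nut0h, 5502 and 5276 at Nut1h and 1969 and 2423 at Nut10h. Both Nut1h libraries stood above the other 4, and the Nut0h and Nut10h ranges overlapped. The rise at Nut1h was 1.26 ± 0.12 (SE, adjusted p = 1.14e-06), the largest among the members with no offset, and 0.50 with the transcript offset and 0.40 with the coding offset, called in both. From Nut1h to Nut10h the log2 fold change was -1.29 ± 0.12 (SE, adjusted p = 5.51e-07), and -0.56 with the transcript offset and -0.33 with the coding offset, called in both.

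EIF2AK4 (chr15:40226316-40327792, + strand) encodes GCN2, the sensor of uncharged tRNAs and so of amino acid shortage. Its counts were 3174 and 3187 at Nut0h, 3315 and 3183 at Nut1h and 4069 and 4098 at Nut10h. The 4 libraries at Nut0h and Nut1h were close to each other and both Nut10h libraries were higher, by a log2 fold change against Nut0h of 0.36 ± 0.087 (SE, adjusted p = 0.00659). EIF2AK4 was the only kinase called higher at Nut10h. At Nut1h it was 0.031 and not called, but -0.18 with the transcript offset and -0.33 with the coding offset, both called lower. EIF2AK3, which encodes PERK, the kinase of the unfolded protein response, had 359 and 384 at Nut0h, 547 and 568 at Nut1h and 320.0 and 352 at Nut10h. It was higher in both Nut1h libraries (0.58 ± 0.11, adjusted p = 3.98e-04), which neither offset kept as a call, and at Nut10h it was -0.14 (adjusted p = 0.386). EIF2AK1, the kinase HRI that senses heme, was 0.21 at Nut1h (adjusted p = 0.0541; -0.077 with the transcript offset and -0.19 with the coding offset, called lower in the latter), and fell at Nut10h by a small amount (-0.26 ± 0.092, adjusted p = 0.0474).

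eIF3, the largest initiation factor, holds the small subunit and mRNA together, and its 13 subunits divided at Nut1h into 5 rises, 6 falls and 2 not called, with a median of -0.15, beside the 34.5% rises and 32.3% falls of all genes. EIF3A, EIF3C, EIF3E, EIF3J and EIF3M rose (0.79, 0.91, 0.61, 0.91 and 0.22). EIF3B, EIF3F, EIF3G, EIF3I, EIF3K and EIF3L fell (-0.36, -0.82, -0.74, -0.30, -0.45 and -0.22), and EIF3D (-0.15) and EIF3H (0.15) were not called. With the transcript offset 2 subunits were called higher and 7 lower, and with the coding offset 3 were higher and 8 lower, where 19.2% and 25.0% of all genes were called with the former and 25.2% and 24.9% with the latter. EIF3E was -0.22 with the transcript offset and -0.18 with the coding offset, and EIF3M was -0.57 with the transcript offset and -0.53 with the coding offset, and both were called lower with each offset. The call of EIF3M with no offset was lost when any 1 library was left out. EIF3L was called in 2 of the 6 fits that leave out 1 library and EIF3B in 4. EIF3H was -0.54 with the transcript offset and -0.30 with the coding offset, called lower in both, and EIF3D was -0.11 with the transcript offset and -0.27 with the coding offset, called lower in the latter. In coding GC content, the risers EIF3E, EIF3M, EIF3J and EIF3A had 39.8% to 47.2%, the 6 that fell had 48.7% (EIF3L) to 60.2% (EIF3G), and EIF3C rose at 54.4%. At Nut10h EIF3B alone was called, as a fall, beside 14.1% rises and 14.9% falls among all genes.

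EIF3F (chr11:7991798-8023409, + strand), a core subunit, had 10846 and 9449.9 at Nut0h, 5500.1 and 5998 at Nut1h and 10772 and 9287 at Nut10h. Both Nut1h libraries were below the other 4, and Nut0h and Nut10h overlapped. The change at Nut1h was -0.82 ± 0.11 (SE, adjusted p = 1.28e-05) and that from Nut1h to Nut10h was 0.80 ± 0.11 (SE, adjusted p = 1.35e-05). The change at Nut1h was -1.52 with the transcript offset and -0.50 with the coding offset, and that from Nut1h to Nut10h was 1.48 and 0.47, all called. The GC content of its canonical transcript is 40.0%, whereas that of its coding sequence is 56.5%. EIF3G, an RNA-binding subunit, had 10727 and 9354 at Nut0h, 5544 and 6442 at Nut1h and 9999 and 8121 at Nut10h. It was lowest in both Nut1h libraries, with a change of -0.74 ± 0.12 (SE, adjusted p = 7.72e-05) at Nut1h and 0.60 ± 0.12 (SE, adjusted p = 4.85e-04) from Nut1h to Nut10h. The Nut1h change was 0.050 with the transcript offset and -0.081 with the coding offset, called in neither, and the change from Nut1h to Nut10h was -0.22 with the transcript offset and -0.062 with the coding offset, the former called as a fall.

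EIF3B (chr7:2393721-2420380, + strand), a core scaffold subunit, had 24943 and 22366 at Nut0h, 17396 and 19437 at Nut1h and 18126 and 16903 at Nut10h. Both Nut10h libraries and both Nut1h libraries were below both Nut0h libraries. The fall was -0.43 ± 0.10 (SE, adjusted p = 0.00488) at Nut10h and -0.36 ± 0.10 (SE, adjusted p = 0.00544) at Nut1h, and only the former was also called with both offsets. At Nut1h EIF3B was 0.16 with the transcript offset and -0.15 with the coding offset. The paper lists EIF3B among RNA-binding proteins upregulated after 1 h and under distal control of p53-bound enhancers. A rise was not called here with no offset or with either offset. The paper's own fold changes and promoter contacts were not used here. EIF3J, a loosely held subunit, had 2023 and 2083 at Nut0h, 3794 and 3895 at Nut1h and 1764 and 2032 at Nut10h. It was higher in both Nut1h libraries than in the other 4 (0.91 at Nut1h, 0.10 with the transcript offset and 0.27 with the coding offset, called only in the latter), and fell from Nut1h to Nut10h by 1.02 ± 0.10 on the log2 scale (adjusted p = 5.50e-07). That fall was -0.24 with the transcript offset and -0.40 with the coding offset, called in both. At Nut10h the other 12 subunits ranged from -0.15 (EIF3G) to 0.22 (EIF3H), and none passed the test. Of all genes 14.1% were called higher there and 14.9% lower.

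EIF3C (chr16:28699879-28747048, + strand), a core subunit, rose at Nut1h with and without the offsets. Its counts were 680.3 and 619 at Nut0h, 1177 and 1269 at Nut1h and 745 and 732 at Nut10h. Both Nut1h libraries were above the other 4, by 0.91 ± 0.10 (SE, adjusted p = 3.51e-06), and the change was 1.26 with the transcript offset and 1.05 with the coding offset. The value is uncertain, because EIF3C has a near-identical copy, EIF3CL, and how reads that map to both were treated is not stated in the sources used here. EIF3C had 659 to 1173 counts in a library, less per length than the other 12 eIF3 subunits at Nut0h (6.76 CPM per kilobase of canonical transcript, against 25.1 for EIF3J, the next lowest). EIF3CL had 26 to 175 counts and moved otherwise, with 61.8 and 44.1 at Nut0h, 26.1 and 32.7 at Nut1h and 169 and 160.1 at Nut10h and a change at Nut10h of 1.63 ± 0.21 (SE, adjusted p = 4.27e-05). EIF3L is uncertain too, since 51.8% of its annotated exon bases overlap other genes, 41.1% on its own strand.

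Cap binding and the eIF4 group, which recruits the mRNA, held 7 rises and no fall among its 11 members at Nut1h, with a median of 0.46, beside the 34.5% rises and 32.3% falls of all genes. With the transcript offset it held 3 rises and 1 fall with a median of 0.048, and with the coding offset 5 rises and no fall with a median of 0.17. Of all genes 19.2% rose and 25.0% fell with the former and 25.2% and 24.9% with the latter. EIF4E (chr4:99800427-99850284, - strand), which binds the cap, had 2175 and 2291 at Nut0h, 4455 and 4689 at Nut1h and 1848 and 2229 at Nut10h. Both Nut1h libraries were well above the other 4. The changes were 1.03 ± 0.10 (SE, adjusted p = 1.39e-06) at Nut1h and -1.17 ± 0.10 (SE, adjusted p = 3.05e-07) from Nut1h to Nut10h, and at Nut10h against Nut0h the difference of -0.13 was not called. Its rise was 0.048 with the transcript offset and 0.38 with the coding offset, called only in the latter, and its fall from Nut1h to Nut10h was -0.21 and -0.53, called in both. EIF4E2, which binds the cap without eIF4G and represses translation, had 2253 and 2247 at Nut0h, 2152 and 2476 at Nut1h and 2139 and 2153 at Nut10h. Its 3 conditions lay close together (0.039 and -0.069, neither called). EIF4E3, the least abundant member per length (0.818 CPM per kilobase at Nut0h), was 0.29 at Nut1h and 0.034 at Nut10h, and its value at Nut1h was -0.54 with the transcript offset and 0.48 with the coding offset, called lower in the former and higher in the latter. Its call with no offset was lost when any 1 library was left out.

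The eIF4A helicases, which unwind 5′ leaders, are encoded by paralogous genes. EIF4A2 (chr3:186500994-186507686, + strand) had 6161 and 7368 at Nut0h, 13076 and 13155 at Nut1h and 8077 and 9891 at Nut10h. The Nut1h libraries were the highest, and both Nut10h libraries were above both Nut0h libraries. It rose by 0.96 ± 0.12 (SE, adjusted p = 6.54e-06) at Nut1h and by 0.41 ± 0.11 (SE, adjusted p = 0.0156) at Nut10h, and the latter was the largest rise of a member at that time. The rise at Nut1h was 0.28 with the transcript offset and 0.33 with the coding offset, called in both. At Nut10h it fell short of the threshold without replicate 1 of Nut0h (0.28) or without replicate 2 of Nut10h (0.27). EIF4A1, usually the abundant form, had 282 and 448 at Nut0h, 411 and 339.8 at Nut1h and 366 and 413 at Nut10h, with no call (0.045 and 0.094). Its 270 to 477 counts are uncertain as a measure of its expression, since 47.4% of its exon bases lie in annotated genes on the same strand, among them the readthrough gene SENP3-EIF4A1 and 2 small nucleolar RNAs. The Nut0h replicates of EIF4A1 also lay apart, and without replicate 2 it was called higher at both times (0.41 and 0.46).

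EIF4A3 (chr17:78108168-78120950, - strand), a related helicase that is the core of the exon junction complex, had 9446 and 8688 at Nut0h, 8358 and 9525 at Nut1h and 6467 and 5781 at Nut10h. The Nut0h and Nut1h libraries overlapped and both Nut10h libraries were lower. The fall of -0.57 ± 0.10 (SE, adjusted p = 8.28e-04) at Nut10h was the largest of the members, and it was called with both offsets and without any 1 of the 6 libraries. EIF4A3 was not called at Nut1h (-0.020).

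The scaffolds also differed. EIF4G1 (chr3:184032283-184053146, + strand), the main scaffold of eIF4F, had 40633 and 38870.1 at Nut0h, 34949 and 38156 at Nut1h and 30612 and 29414 at Nut10h. Both Nut10h libraries were below the other 4, with a change of -0.41 ± 0.094 (SE, adjusted p = 0.00504), and at Nut1h the change of -0.12 was not called, but it was 0.38 with the transcript offset and 0.17 with the coding offset, called higher in the former. EIF4G3, its paralogue, had 2072 and 2231 at Nut0h, 2988 and 2931 at Nut1h and 2270.0 and 2434 at Nut10h. It was highest at Nut1h (0.46 ± 0.092, adjusted p = 5.16e-04, not called with either offset) and was 0.13 at Nut10h (adjusted p = 0.324). EIF4G2, also called DAP5, lacks the site for eIF4E and was the most abundant member per length after EIF5A (293 CPM per kilobase at Nut0h). It was 0.46 at Nut1h, called with no offset only, and -0.13 at Nut10h, not called.

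EIF4B (chr12:53400066-53435999, + strand) and EIF4H are cofactors of the eIF4A helicases. EIF4B had 20687 and 20862 at Nut0h, 30852 and 31506 at Nut1h and 24207 and 25288 at Nut10h. All treated libraries were above both Nut0h libraries, by 0.59 ± 0.090 (SE, adjusted p = 5.35e-05) at Nut1h and by 0.25 ± 0.089 (SE, adjusted p = 0.0477) at Nut10h. At Nut1h the change was 0.17 with the transcript offset and 0.39 with the coding offset, called only in the latter. Without 1 library the Nut10h value ran from 0.23 to 0.29 and was not called. EIF4H was 0.47 at Nut1h, called with both offsets, and -0.19 at Nut10h (adjusted p = 0.141). Both offsets gave a fall there.

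With no offset, the largest fall of any member at Nut1h was in the mRNA of an inhibitor of eIF4E. With the transcript offset EIF3F fell most (-1.52), and with the coding offset EIF5A (-0.85). EIF4EBP1, which encodes 4E-BP1, the inhibitor that mTORC1 inactivates by phosphorylation, had 6558 and 5534 at Nut0h, 1940.4 and 2147 at Nut1h and 5281 and 4105 at Nut10h. The 2 Nut1h libraries were far below the rest, and the Nut10h libraries lay between these and Nut0h. The changes were -1.57 ± 0.13 (SE, adjusted p = 2.97e-07) at Nut1h, -0.37 ± 0.12 (SE, adjusted p = 0.0383) at Nut10h and 1.20 ± 0.13 (SE, adjusted p = 1.49e-06) from Nut1h to Nut10h. Without replicate 2 of Nut10h the Nut10h change was -0.18 and not called. EIF4EBP1 had the highest coding GC content of the members (64.4%), and its fall at Nut1h was -0.53 with the transcript offset and -0.61 with the coding offset, called in both, whereas its rise from Nut1h to Nut10h was 0.17 with the transcript offset and 0.24 with the coding offset, called only in the latter. EIF4EBP2, a further inhibitor, had 3212 and 3752 at Nut0h, 4489.7 and 4548 at Nut1h and 2989 and 3397 at Nut10h. It was highest at Nut1h (0.38 ± 0.10, adjusted p = 0.00507), but that change was -0.042 with the transcript offset and 0.65 with the coding offset, called only in the latter, and was not called without replicate 1 of Nut0h (0.26) or replicate 2 of Nut1h (0.36), and at Nut10h it was -0.12, not called. EIF4ENIF1, the transporter that brings eIF4E into the nucleus, was -0.39 at Nut1h, called with both offsets, and -0.13 at Nut10h, called only with the transcript offset. The opposite direction of EIF4E and EIF4EBP1 at Nut1h stands beside coding GC contents of 42.7% and 64.4%.

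**Figure D4:**
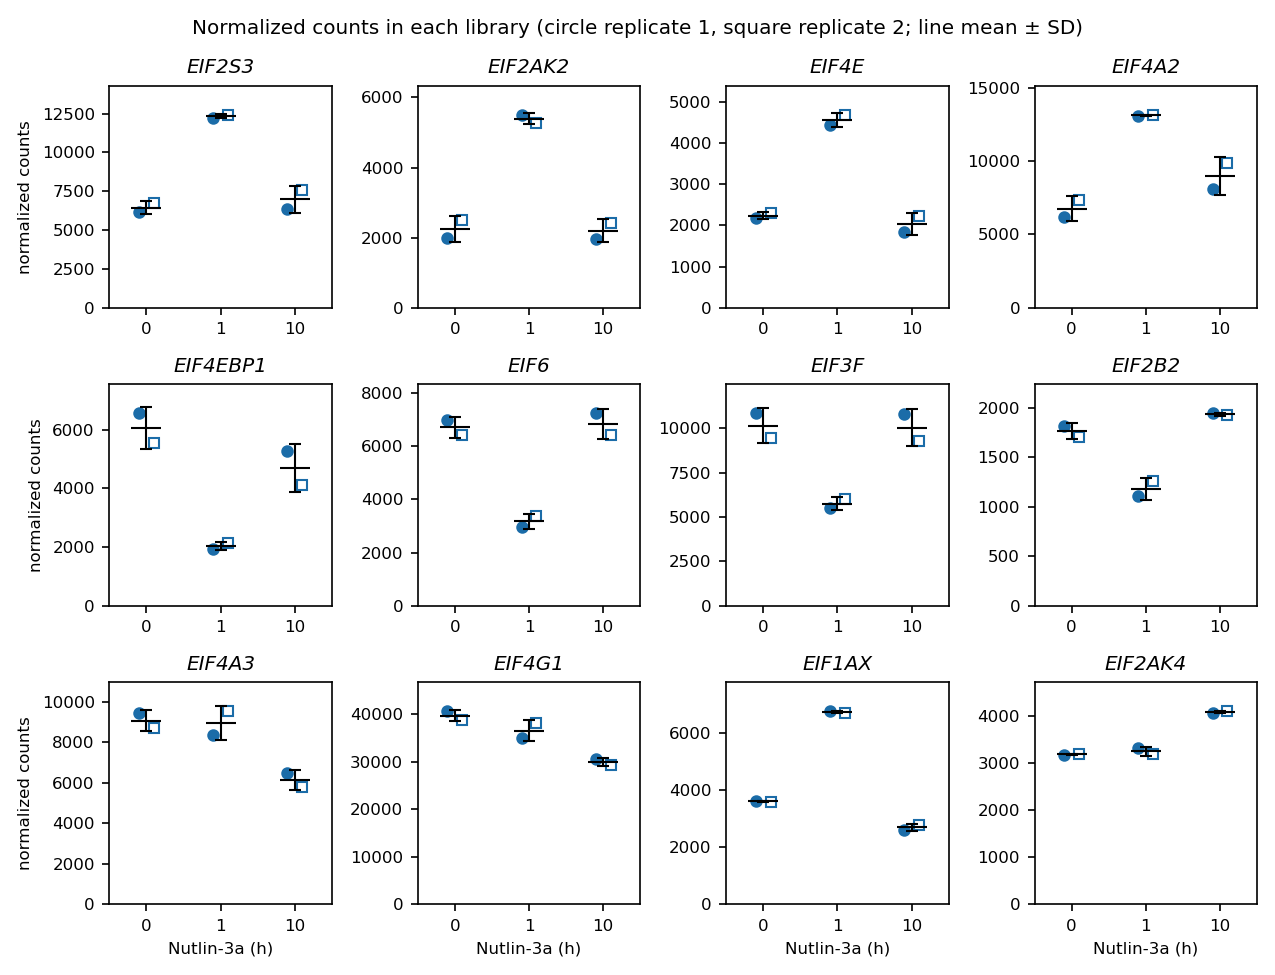
Normalized counts (y axes, from 0) of 12 members in each of the 6 libraries at 0, 1 and 10 h of Nutlin-3a (x axes), with circles for replicate 1, squares for replicate 2 and the mean ± SD in black (n = 2). EIF2S3, EIF2AK2, EIF4E and EIF4A2 peak at 1 h, EIF4EBP1, EIF6, EIF3F and EIF2B2 dip at 1 h, and EIF4A3, EIF4G1, EIF1AX and EIF2AK4 differ from 0 h at 10 h.

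Of the 8 factors of start codon choice, subunit joining and related steps, 6 rose and 2 fell at Nut1h, and at Nut10h 3 were lower than the control and none higher. Of all genes 34.5% rose and 32.3% fell at Nut1h, and 14.1% rose and 14.9% fell at Nut10h. At Nut1h the transcript offset gave 1 rise and 3 falls among these 8, and the coding offset gave 0 rises and 5 falls, where the offsets gave 19.2% rises and 25.0% falls (transcript) and 25.2% and 24.9% (coding) over all genes. EIF1AX (chrX:20142643-20159956, - strand) encodes eIF1A, which keeps the scanning complex open until a start codon is met. Its counts were 3613 and 3594 at Nut0h, 6757 and 6713 at Nut1h and 2601 and 2784 at Nut10h. Replicates lay close together and the 3 conditions did not overlap. The changes were 0.90 ± 0.089 (SE, adjusted p = 1.24e-06) at Nut1h, -0.42 ± 0.089 (SE, adjusted p = 0.00278) at Nut10h and -1.32 ± 0.090 (SE, adjusted p = 2.55e-08) between them. The fall at Nut10h was called with both offsets and without any 1 library, whereas the rise at Nut1h was -0.051 with the transcript offset and 0.072 with the coding offset, called in neither, at a coding GC content of 38.9%. The fall from Nut1h to Nut10h was -0.40 with the transcript offset and -0.42 with the coding offset, called in both.

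EIF5B (chr2:99953834-100017789, + strand), the GTPase of subunit joining, had 7477 and 7725 at Nut0h, 11506 and 12043 at Nut1h and 5946 and 6393 at Nut10h. Both Nut1h libraries were the highest and both Nut10h libraries the lowest. The changes were 0.63 ± 0.090 (SE, adjusted p = 3.01e-05) at Nut1h, -0.30 ± 0.090 (SE, adjusted p = 0.0226) at Nut10h and -0.93 ± 0.091 (SE, adjusted p = 7.25e-07) between them. The last was -0.19 with the transcript offset and -0.069 with the coding offset, called only in the former, and the rise at Nut1h was -0.14 with the transcript offset and -0.18 with the coding offset, of which the latter was called as a fall. EIF1, the partner of eIF1A in start codon choice, had 12848 and 12102 at Nut0h, 13998 and 14966 at Nut1h and 12444 and 12405 at Nut10h. Its difference was small at both times (0.22 ± 0.091, adjusted p = 0.0489, at Nut1h and -0.0058 at Nut10h, not called). The Nut1h call was lost when any 1 library was left out (0.16 to 0.27), and the Nut1h value turned to -0.29 with the coding offset. EIF1B, its paralogue, had 677 and 644 at Nut0h, 1209 and 1141 at Nut1h and 698 and 785 at Nut10h. It was higher in both Nut1h libraries, by 0.83 ± 0.10 (SE, adjusted p = 8.99e-06), and the change was 0.28 with the transcript offset and 0.18 with the coding offset, called only in the former. At Nut10h the difference of 0.17 was not called. EIF5, which triggers GTP hydrolysis on eIF2, was 0.59 at Nut1h (-0.084 with the transcript offset and -0.10 with the coding offset, called in neither) and -0.19 at Nut10h, and EIF2A, an alternative carrier of initiator tRNA, was 0.40 and 0.17. Neither was called at Nut10h with no offset, but EIF5 was called lower there with both offsets and EIF2A higher with the coding offset. At Nut1h EIF2A was -0.36 with the transcript offset and -0.37 with the coding offset, called lower in both.

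EIF6 and EIF5A, named as initiation factors but acting later or on the ribosome, fell at Nut1h. EIF6 (chr20:33866710-33872788, - strand), which keeps the large subunit from joining too early, had 7000.0 and 6437 at Nut0h, 2972 and 3383 at Nut1h and 7244 and 6426 at Nut10h. Both Nut1h libraries were below the other 4, and Nut0h and Nut10h overlapped. The changes were -1.08 ± 0.10 (SE, adjusted p = 9.92e-07) at Nut1h and 1.11 ± 0.10 (SE, adjusted p = 4.81e-07) from Nut1h to Nut10h, and at Nut1h -0.53 with the transcript offset and -0.73 with the coding offset, called in both. From Nut1h to Nut10h the offsets gave 0.53 and 0.74, called in both. EIF5A (chr17:7210318-7215782, + strand), the hypusine-bearing factor that helps ribosomes past stalls, was the most abundant member per length (964 CPM per kilobase at Nut0h). It had 44164 and 36258 at Nut0h, 22421 and 24677 at Nut1h and 32195 and 32103 at Nut10h. All treated libraries were below both Nut0h libraries, by -0.77 ± 0.11 (SE, adjusted p = 2.43e-05) at Nut1h and by -0.32 ± 0.11 (SE, adjusted p = 0.0364) at Nut10h. The Nut1h change was -0.28 with the transcript offset and -0.85 with the coding offset, called in both. EIF5AL1, a copy of EIF5A with 1176 to 2017 counts, could share reads with it.

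At Nut10h the 8 members with a pyrimidine start, whose windows are printed above, had a median log2 fold change of 0.13, with 2 called higher (EIF4A2 and EIF4B) and none lower. The 31 members with another start had a median of -0.12, with 1 called higher and 6 lower. Of all tested genes with a pyrimidine start 14.3% were called higher and 14.9% lower, and of those with another start 14.6% and 17.9%. The 8 fold changes ran from -0.087 (EIF3K) to 0.41 (EIF4A2), and those of EIF2A (0.17), EIF3M (0.14), EIF2S3 (0.11), EIF3D (0.0025) and EIF3F (-0.017) lay between. With the transcript GC-content offset the medians were 0.10 and -0.16. Over all tested genes with a window, the medians were 0.035 for the 739 genes with such a start and -0.025 for the 9473 others. At Nut1h the medians of the 2 classes of members were 0.31 and 0.29, and -0.16 and -0.042 with the transcript offset. Since the rule was chosen with the fold changes known, no test was made, and these are descriptions of mRNA levels, not of translation.

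**Figure D5:**
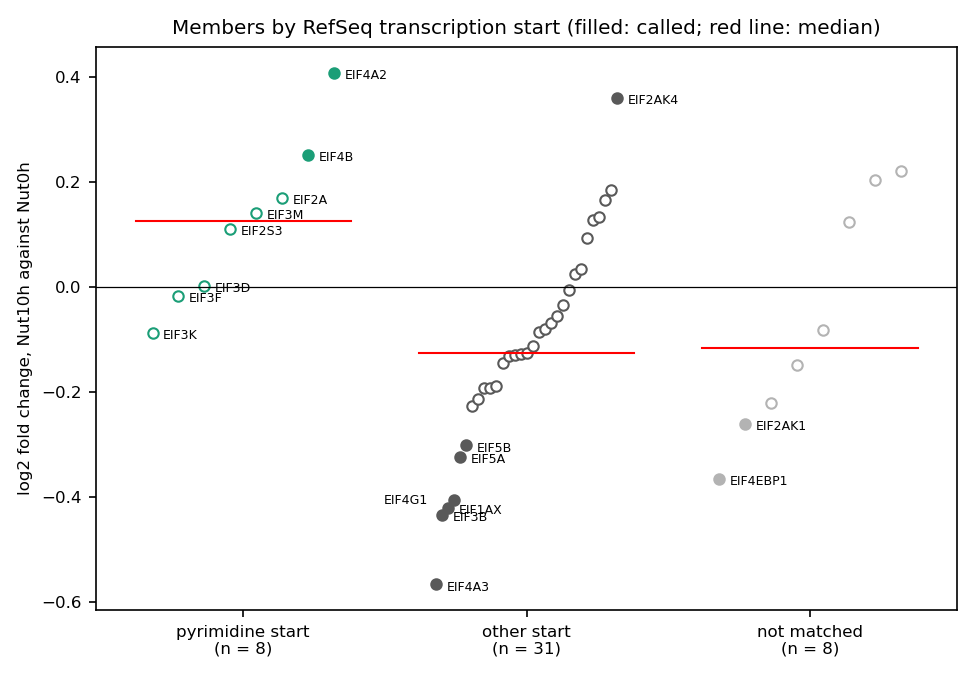
Log2 fold change between Nut10h and Nut0h (y axis) of members whose RefSeq start is a C followed by at least 4 pyrimidines (n = 8), of members with another start (n = 31) and of members not matched to a window (n = 8), with filled points for an adjusted p of at most 0.05 and red lines at the medians. The median is 0.13 with a pyrimidine start and -0.12 with another start.

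RefSeq promoter sequences were searched for the p53 consensus half-site on both strands, over 250 bases before to 50 after each RefSeq start. An exact match was found in 3 of the 39 members with a window, against 8.06% of all gene symbols, so that matches were not more frequent among the members. A match of letters is a description and not a binding site. EIF2AK4, called higher at Nut10h, held 1 match at position -103 from its start, and EIF5A, called lower, held 1 match at position 25 from a start. EIF3C, not called at Nut10h, held 2, at positions -213 and -34. The 4 matches are shown with capitals for the half-site (GRCh38.p14).
EIF2AK4, chr15:39934002-39934031, + strand: ggagcctccgGAGCTAGCTCccggcgcgga
EIF5A, chr17:7308388-7308417, + strand: ctagcgcgggGAGCTAGTCCtcgcgggggt
EIF3C, chr16:28688335-28688364, + strand: aagagaaacaAAACTTGCCTttcctttttt
EIF3C, chr16:28688514-28688543, + strand: caggaggaagGGGCTTGTCCtggttcctcc

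Of 47 other genes of translation that were listed by role, 44 were tested. At Nut1h 19 of them were higher and 17 lower, and at Nut10h 5 were higher and 6 lower, with medians of 0.13 and -0.051, beside shares of 34.5% and 32.3% of all genes at Nut1h and 14.1% and 14.9% at Nut10h. With the transcript offset 10 were higher and 18 lower at Nut1h (median -0.086), and with the coding offset 11 were higher and 19 lower (median -0.13). The shares of all genes were then 19.2% and 25.0%, and 25.2% and 24.9%. The largest rises at Nut1h were those of DNAJC3, an inhibitor of PKR and PERK, at 1.36 ± 0.10 (SE, adjusted p = 1.87e-07), DDX3X and IMPACT, an inhibitor of GCN2, at 1.26 ± 0.11 (SE, adjusted p = 3.83e-07). DDX3X, a helicase that aids scanning, was 1.30 ± 0.10 (SE, adjusted p = 2.78e-07). All 3 were called with both offsets, at 0.66 and 0.62 for DNAJC3, 0.43 and 0.55 for IMPACT and 0.64 and 0.85 for DDX3X (transcript and coding). MKNK2, a kinase of eIF4E, had 10014 and 8827 at Nut0h, 3231 and 3402 at Nut1h and 19593 and 16946 at Nut10h, and both Nut1h libraries were lowest and both Nut10h libraries highest (-1.51 ± 0.11, adjusted p = 1.25e-07, at Nut1h and 0.96 ± 0.10, adjusted p = 8.59e-06, at Nut10h). Its fall at Nut1h was -0.56 with the transcript offset and -0.65 with the coding offset. EEF1A2, an elongation factor, and EEFSEC, the selenocysteine elongation factor, fell at Nut1h (-1.27 and -1.11). EEF1A2 was -0.081 with the transcript offset and -0.48 with the coding offset, called only in the latter, and EEFSEC was -0.24 with the transcript offset and -0.48 with the coding offset, called in both.

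PDCD4, an inhibitor of eIF4A, had 423 and 439 at Nut0h, 986 and 847 at Nut1h and 891 and 992 at Nut10h. All treated libraries were above both controls, with changes of 1.09 ± 0.11 (SE, adjusted p = 2.02e-06) at Nut1h and 1.13 ± 0.11 (SE, adjusted p = 4.11e-06) at Nut10h. The former was 0.30 with the transcript offset and 0.38 with the coding offset and the latter 1.10 and 1.12, all called. EIF3CL, PDCD4 and MKNK2 had the largest rises of this list at Nut10h. The largest falls were those of EIF5A2, a paralogue of EIF5A (-0.48 ± 0.14, adjusted p = 0.0206), EEF1E1, a part of the tRNA synthetase complex (-0.46 ± 0.12, adjusted p = 0.0133), and ABCF1, which binds eIF2 (-0.39 ± 0.10, adjusted p = 0.00714). With no offset, EIF5A2 resembled EIF1AX and EIF5B in being called higher at Nut1h (1.13) and lower at Nut10h, whereas EIF5A was called lower at both times. At Nut1h EIF5A2 was 0.10 with the transcript offset, not called, and 0.47 with the coding offset, called higher. EIF1AX and EIF5B were not called higher there with either offset.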

How the data were processed

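RNA-seq of 6 HCT116 libraries was measured. The authors trimmed reads with Trim Galore 0.6.6, aligned them to GRCh37.p13 with STAR 2.7.0f and counted them per gene with featureCounts (Subread 2.0.0), and deposited the raw counts. The strand setting and the treatment of multimapping reads are not given in the sources used here. Their table of comparisons from DESeq2 1.36.0 holds fold changes and p-values, and only its gene symbols were used.

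Genes were filtered with filterByExpr, scaled by TMM, and a quasi-likelihood fit (edgeR 4.0.16 with limma 3.58.1 in R 4.3.3) was made over all 6 libraries with the condition as the only term. Adjustment of p-values followed Benjamini and Hochberg. The standard error is the log2 fold change over the square root of F. The procedure was also run on simulated data, and no result of that run is used here. Replicates correlated at r of 0.997 to 0.998 on log2(CPM + 1), and their counts differed beyond sampling noise. GC-content offsets are loess trends (span 0.4) on the canonical transcript (GC content known for 97.4% of tested genes) or its coding sequence (78.4%), from GENCODE lifted to GRCh37. Genes with no known GC content were fitted without this offset and stay in the shares of all genes. Promoter windows come from RefSeq, and their coordinates on GRCh38.p14 are separate from those of the genes on GRCh37.

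The members and lists were chosen with earlier results of these data known. Values are given in full for the 5 called members that rose most and the 5 that fell most in each comparison, for members called in opposite directions at both times, and for paralogue pairs, and for other translation genes the 3 largest called changes in each direction against Nut0h. Alternatives were DESeq2 1.42.0, other size factors, filters and designs, offsets on GC content or length, mitochondrial genes left out, and each library left out in turn. Offsets on the coding sequence and on the longest transcript and a crossed replicate block were added after seeing the data.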

Additional observations from a re-analysis of the deposited data

Results flagged for a closer look

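The effects of Nutlin-3a at 1 h and at 10 h differed by edgeR's quasi-likelihood test in 39 of the 47 members, 12 higher and 27 lower at Nut10h than at Nut1h, beside 34.2% and 33.7% of all genes. With the transcript GC-content offset 10 members were higher and 20 lower, beside 29.0% and 28.6% of all genes, and with the coding offset 17 were higher and 16 lower, beside 29.1% and 30.5%. With no offset, calls in opposite directions against Nut0h were made for EIF1AX and EIF5B. With the offsets neither was called higher at Nut1h. EIF1AX was -0.051 there with the transcript offset and 0.072 with the coding offset, called in neither. EIF5B was -0.14 with the transcript offset and -0.18 with the coding offset, the latter called as a fall. The change of EIF1AX from Nut1h to Nut10h was -1.32 ± 0.090 (SE, adjusted p = 2.55e-08) and that of EIF5B was -0.93 ± 0.091 (SE, adjusted p = 7.25e-07), and for both genes the 2 Nut10h libraries were below the 2 Nut1h libraries. With the transcript and the coding GC-content offsets, EIF1AX changed by -0.40 and -0.42, and EIF5B by -0.19 and -0.069, of which only the last was not called.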

How the results depend on the processing

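Of 882 recomputations of the values of named members, 766 kept their direction and their side of the threshold, 61 fell short of it, 4 newly passed it, 29 changed sign with a call in at least 1 of the fits compared and 22 changed sign with a call in neither. The 22 were values of EIF1 and EIF4A1 at Nut10h and of EIF2AK4, EIF4A1, EIF4E2 and EIF4G1 at Nut1h, 5 of them with a GC-content offset. All of the 29 came with a GC-content offset, the replicate block with that offset, or an offset on the GC content of the coding sequence or the longest transcript, of which the latter pair was chosen after seeing the data. In the order transcript offset, replicate block with that offset and longest-transcript offset, the Nut1h log2 fold changes were -0.083, -0.081 and -0.063 for EIF1, -0.051, -0.049 and -0.0034 for EIF1AX, 0.050, 0.051 and 0.077 for EIF3G, -0.042, -0.040 and -0.021 for EIF4EBP2, 0.38, 0.38 and 0.48 for EIF4G1 and -0.14, -0.14 and -0.11 for EIF5B, and those of EIF3G from Nut1h to Nut10h were -0.22, -0.22 and -0.25. EIF2AK4 was -0.18 and -0.19 with the first 2 of these, and EIF4E2 (-0.33) and EIF4G3 (-0.073) changed sign with the longest-transcript offset. Among values called in at least 1 fit, with the coding offset EIF1 was -0.29, EIF2AK4 -0.33, EIF5B -0.18 and, from Nut1h to Nut10h, EIF3G -0.062. The cause was not tested. The count of rises at Nut1h (25) became 10 with the transcript offset, 10 with the block and that offset, and 11 with the coding or the longest-transcript offset, and the count of falls (12) became 20 with the coding offset. At Nut10h the falls (8) became 15 with the transcript offset, 14 with the block and that offset, 14 with the longest-transcript offset and 4 with only the 4 libraries compared. From Nut1h to Nut10h the falls (27) became 16 with the coding offset. Shares of all genes are given above for the transcript and coding offsets only. Counts with other settings are therefore not read as results about the members. Leaving out each library in turn gave 20 to 22 rises and 8 to 12 falls at Nut1h, 0 to 3 rises and 3 to 6 falls at Nut10h, and 8 to 12 rises and 21 to 24 falls from Nut1h to Nut10h. Without replicate 1 of Nut0h, the Nut10h calls were 0 rises and 3 falls (EIF4A3, EIF1AX and EIF4G1). Such a fit keeps 1 library in a group and takes it to vary like the others.

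Replicate numbers are shared between the conditions, but the deviations of same-numbered libraries from their group means correlated at -0.31 (Nut0h and Nut1h), 0.45 (Nut0h and Nut10h) and -0.28 (Nut1h and Nut10h), so that the numbers are not taken to pair the libraries. A fit with the replicate block gave 22 rises and 11 falls at Nut1h, 2 and 7 at Nut10h, and 12 and 25 from Nut1h to Nut10h. A crossed pairing of the numbers, added after seeing the data, gave 7 rises and 15 falls at Nut10h. No share of all genes is given for the block or the crossed pairing, so these counts are not read as results about the members.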

Other observations

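Per length, the members spanned from 0.818 (EIF4E3) to 964 (EIF5A) CPM per kilobase of canonical transcript at Nut0h. After EIF5A and EIF4G2, the next were the eIF3 subunits EIF3I (277), EIF3K (276) and EIF3G (276). EIF4EBP1 (221) stood above EIF4E (27.9), the protein it inhibits, at Nut0h. At Nut1h the same levels were 74.9 and 57.1, and at Nut10h 172 and 25.4. These levels take no GC-content offset. With the transcript and the coding offset, the Nut1h changes were smaller, at -0.53 and -0.61 for EIF4EBP1 and 0.048 and 0.38 for EIF4E. Among the eIF2 alpha kinases, EIF2AK1 (44.1) and EIF2AK4 (17.4) were above EIF2AK2 (6.83) and EIF2AK3 (2.48) at Nut0h. These levels depend on the transcript taken as canonical and on how reads shared with copies were counted.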
